A study of Mus musculus with 8 samples.

Results

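Proteasome genes were read out in mouse blastocysts that were fresh, vitrified and thawed, or vitrified and thawed with melatonin. They were taken as every gene of the expression table whose symbol starts with Psma to Psmg and a number, with 4 symbols of pseudogenes left out. This gave 50 of 19688 genes: 16 of the core, 20 of the cap, 10 activators and assembly chaperones, 3 immune subunits and Psmc3ip. Psmc3ip matches by name alone, since it encodes a recombination protein named for its binding to Psmc3 and is no part of the proteasome.

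The proteasome is the protease that degrades proteins tagged with ubiquitin. Its core is a barrel of stacked rings, with outer rings of alpha subunits (Psma) that gate the entrance and inner rings of beta subunits (Psmb), of which Psmb5, Psmb6 and Psmb7 carry the active sites. The cap at the ends of the barrel binds ubiquitin chains, removes them and threads the substrate inward with a ring of ATPases (Psmc) held by scaffold and lid subunits (Psmd). Activators (Psme) can take the place of the cap, and the chaperones Psmg1 to Psmg4 build the core. Interferon-induced Psmb8, Psmb9 and Psmb10 replace Psmb5, Psmb6 and Psmb7 in the immunoproteasome, which is known for making peptides for MHC class I. In the early embryo, proteasomes degrade maternal proteins.

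RNA was sequenced from 8 libraries: 2 of fresh blastocysts, which served as the control, 3 of blastocysts vitrified (frozen to a glass) and thawed without melatonin, and 3 of blastocysts for which both the vitrification and the thawing media held 1e-10 M melatonin, an antioxidant hormone. The sample names of the control refer to in vitro fertilization, and no strain or embryo age was stated. The labels number the replicates as biosamples without saying whether these were separate animals, pools or cultures, so p-values reflect only the variation among these libraries, which may be technical. Libraries are named by group and biosample number (fresh 1 and so on). Values are FPKM, fragments scaled by transcript length and library size, a scale on which levels of different genes can be compared.

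An estimated 5813000 (fresh 2) to 9992000 fragments (fresh 1) stood behind each library. The mitochondrial share of summed FPKM was 11.3% in fresh 1, 6.56% in fresh 2 and 4.24% to 5.89% in the other 6 libraries. Between 15749 and 16400 genes were above 0 in the vitrified libraries and between 14260 and 14889 in the other 5. Transcripts of the Y chromosome were listed at 0 in vitrified 2 and 3 and detected in the other 6. The keratins Krt8 and Krt18, markers of the trophectoderm of the labelled stage, reached at least 1485 and 4947 FPKM in every library. Summed markers of cumulus cells stayed at or below 1.39 FPKM and those of fibroblasts at or below 0.453. Only 4 of 9 listed cumulus genes and 3 of 6 listed fibroblast genes were in the table.

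Promoter sequence is shown for the immune subunits Psmb9 and Psmb8 and for their constitutive counterparts Psmb6 and Psmb5, because Psmb9 was the single proteasome gene that passed the test between any of the groups while Psmb8 was barely detected. The windows run from 250 bases before to 50 bases after the start site, 5′ to 3′ on the strand of the gene, from RefSeq (GRCm38.p6). Capitals mark matches, on either strand, to TGACNNNGC (the core of the antioxidant response element), GAAANNGAA (the core of the interferon-stimulated response element), TTCNNNGAA (the gamma-activated sequence bound by STAT factors) and CCAAT (bound by NF-Y). Psmb9 lies at chr17:34187281-34187580 (minus strand), Psmb8 at chr17:34197945-34198244 (plus strand), Psmb6 at chr11:70525107-70525406 (plus strand) and Psmb5 at chr14:54617946-54618245 (minus strand).
Psmb9: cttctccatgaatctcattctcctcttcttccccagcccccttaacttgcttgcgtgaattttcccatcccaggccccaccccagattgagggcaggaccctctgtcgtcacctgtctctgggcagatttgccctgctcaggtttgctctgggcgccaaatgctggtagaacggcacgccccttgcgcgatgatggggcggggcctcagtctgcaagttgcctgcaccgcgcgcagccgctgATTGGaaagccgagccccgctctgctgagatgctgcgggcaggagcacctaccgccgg
Psmb8: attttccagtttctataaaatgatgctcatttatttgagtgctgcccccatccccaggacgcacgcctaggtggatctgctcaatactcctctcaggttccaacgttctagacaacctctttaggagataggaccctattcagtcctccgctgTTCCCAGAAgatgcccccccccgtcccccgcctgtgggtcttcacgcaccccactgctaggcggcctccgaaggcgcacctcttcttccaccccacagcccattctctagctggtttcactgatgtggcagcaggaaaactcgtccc
Psmb6: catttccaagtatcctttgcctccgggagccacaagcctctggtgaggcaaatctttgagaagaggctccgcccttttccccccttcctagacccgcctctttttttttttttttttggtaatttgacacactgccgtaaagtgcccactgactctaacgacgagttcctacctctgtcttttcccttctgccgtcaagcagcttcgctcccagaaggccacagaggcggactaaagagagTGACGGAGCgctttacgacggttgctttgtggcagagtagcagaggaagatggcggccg
Psmb5: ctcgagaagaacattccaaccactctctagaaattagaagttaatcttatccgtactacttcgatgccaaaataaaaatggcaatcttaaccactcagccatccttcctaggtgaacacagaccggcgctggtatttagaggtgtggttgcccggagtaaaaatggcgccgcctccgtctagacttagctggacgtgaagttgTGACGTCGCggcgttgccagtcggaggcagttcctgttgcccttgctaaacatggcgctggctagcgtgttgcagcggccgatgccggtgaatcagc

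The Psmb9 window held a CCAAT match on its minus strand that starts 8 bases before the start site and none of the other 3 motifs. Psmb8 held a gamma-activated sequence starting 97 bases before the start site. Psmb6 and Psmb5 held the antioxidant response core, starting 9 and 47 bases before the start site. A match is a description of these letters and no proof of a site. Of the 50 genes, 42 had a window in the table.

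Among those 42 genes, the antioxidant response core was found in 14.3%, against 14.0% of the 27025 genes with windows of the same length. The interferon-stimulated core was in 16.7% against 9.76% of all, and the gamma-activated sequence in 7.14% against 9.55%. By class, the interferon-stimulated core was in 16.7% of core, 17.65% of cap and 22.2% of activator and chaperone genes. It was in 0 of the 3 immune subunits. CCAAT was in 35.7% against 41.1% of all genes, and by class in 58.3% of the 12 core genes and 29.4% of the 17 cap genes with a window. None of the 4 motifs contains another.

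Proteasome transcripts made up 1.42% to 1.70% of the summed FPKM in the 8 libraries. Core genes summed to 3483 and 3286 FPKM in fresh, 3012, 3311 and 2995 in vitrified and 2634, 3116 and 3040 in melatonin blastocysts. All 3 melatonin libraries lay below both fresh libraries, while vitrified 2 lay above fresh 2. The FPKM summed over all genes held the same for these libraries, but its order differed elsewhere. Melatonin 2 lay above vitrified 1 and 3 in its core sum and below both in the total over all genes. These totals were 455880 and 399359 in fresh, 385117, 408788 and 394678 in vitrified and 370870, 378930 and 395551 in melatonin blastocysts. The core sums are not scaled to them. Cap genes summed to 2413 to 2922 FPKM with overlap between all groups. Activators and chaperones summed to 325 to 433 FPKM, and the 3 immune subunits to 4.53 to 9.24.

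Of the alpha ring, Psma2 had the highest mean of all proteasome genes (617 FPKM over the 8 libraries, range 482 to 666). Psma1 (199 to 256 FPKM), Psma6 (192 to 228) and Psma7 (121 to 180) followed, then Psma5 (71.7 to 105) and Psma4 (67.4 to 103). Psma3 had the lowest level of the somatic alpha subunits, at 19.0 to 31.6 FPKM. Psma8, the alpha subunit of the proteasome of meiotic germ cells, was measured at 4.85 and 3.25 FPKM in fresh, 4.88, 10.2 and 7.48 in vitrified and 2.73, 6.43 and 4.26 in melatonin blastocysts. The germ cell markers, with 6 of 8 listed genes in the table, summed to at most 4.82 FPKM in any library. Bmp15, Gdf9, Prm1 and Prm2 were below 1 FPKM throughout. Zp2 was at 3.50 and 1.25 FPKM in fresh 1 and 2, and Zp3 reached 1.34 in vitrified 3.

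Of the beta ring, Psmb1 (393 to 571 FPKM) and Psmb2 (363 to 470) had the highest levels. The active-site subunits differed among themselves, with Psmb5 at 216 to 309.7 FPKM, Psmb6 at 212 to 284 and Psmb7 at 28.3 to 58.0. Psmb3 (175 to 233 FPKM) and Psmb4 (66.5 to 103) have no active site. Psmb11, the beta subunit of thymic epithelium, was listed at 0.134 and 0.0287 FPKM in vitrified 1 and 3 and at 0 elsewhere.

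In the cap, the ATPase Psmc1 had the highest mean (466 FPKM, range 413 to 539), followed by Psmc5 (312 to 406). Psmc4 ranged from 162 to 205 FPKM, Psmc6 from 154 to 229, Psmc2 from 104 to 133 and Psmc3 from 88.0 to 109.5. The large scaffold subunits Psmd1 (30.5 to 54.0) and Psmd2 (62.0 to 97.4) and the ubiquitin receptor Psmd4 (49.4 to 62.5) were lower than all 6 ATPases in mean FPKM.

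Of the lid, Psmd7 (233 to 325 FPKM) and Psmd8 (197 to 259.7) were highest. Psmd12 ranged from 103 to 168, Psmd6 from 98.1 to 115 and the deubiquitinase Psmd14 from 82.8 to 111. Psmd3 (25.6 to 34.5), Psmd11 (25.5 to 35.0) and Psmd13 (15.4 to 29.1) were lowest of the lid. Of the chaperones that assemble the base of the cap, Psmd10 ranged from 43.1 to 56.4 FPKM, Psmd5 from 16.6 to 26.4 and Psmd9, the lowest cap gene, from 7.25 to 9.69.

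Of the activators, the nuclear form Psme3 ranged from 26.4 to 45.1 FPKM and Psme4, the lowest of its class, from 4.17 to 9.18. Psme1 (8.48 to 12.8) and Psme2 (6.20 to 10.9) form the interferon-induced activator. Psme2b, a near copy of Psme2 with 1 annotated transcript, was listed at 44.1 to 63.0 FPKM. No source used here says how fragments shared by the copies were assigned, so both values are uncertain. The same limit holds for every proteasome gene with a processed copy elsewhere in the genome.

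Psmf1, which binds and inhibits the core in vitro, ranged from 10.8 to 15.1 FPKM. Of the core assembly chaperones, Psmg2 (81.8 to 141) and Psmg1 (67.1 to 107) work as one pair and Psmg3 (7.78 to 15.0) and Psmg4 (30.2 to 67.3) as another.

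**Figure D1:**
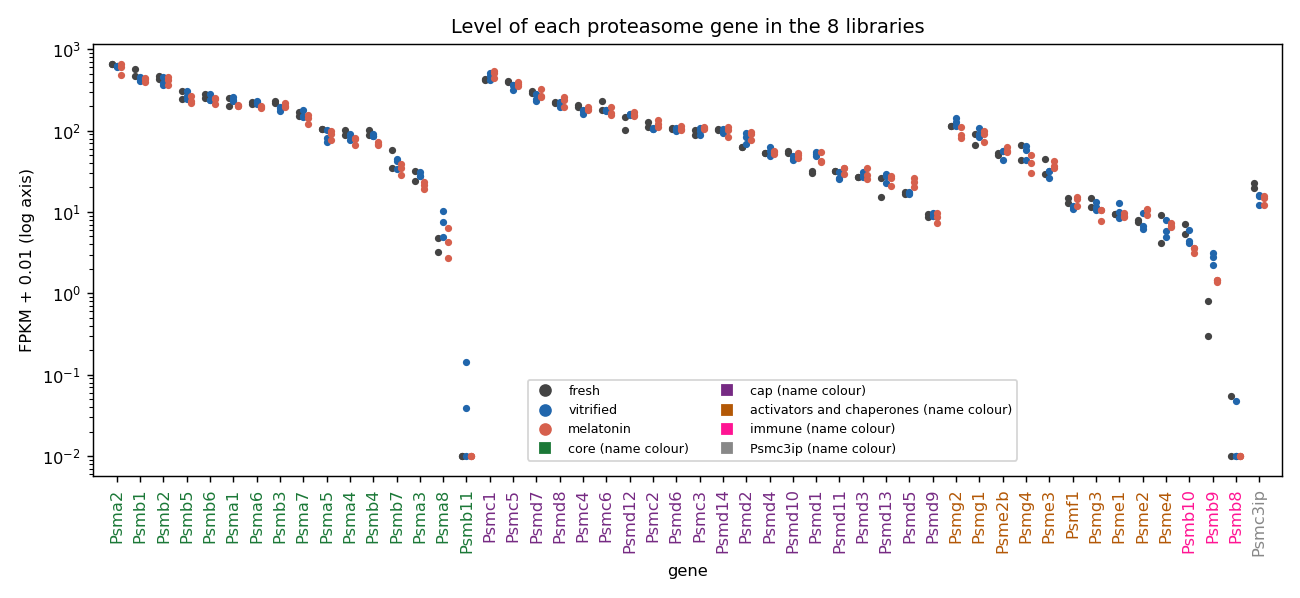
FPKM (plus 0.01, log axis) of each proteasome gene in the 8 libraries, 1 point per library, coloured by group and ordered by mean level within each class (colour of the gene name). Psma2 leads the core at a mean of 617 FPKM and Psmc1 the cap at 466, while Psmb8 and Psmb11 lie below 1 FPKM in every library.

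The first comparison, vitrified against fresh, asks what freezing and thawing change. Psmb9 (ENSMUSG00000096727, chr17:34181987-34187764, minus strand), the immune subunit that replaces Psmb6, was measured at 0.286 and 0.791 FPKM in fresh, 2.19, 3.12 and 2.82 in vitrified and 1.44, 1.38 and 1.44 in melatonin blastocysts. All 3 vitrified libraries lay above the 3 melatonin libraries, which in turn lay above both fresh libraries. Psmb9 rose after vitrification by a log2 fold change of 1.28 ± 0.23 (SE) on the log2(FPKM + 1) scale, with a limma adjusted p of 0.0448 (Benjamini-Hochberg over 10755 genes, threshold 0.05). The ratio of the mean FPKM was 5.04, since the added 1 shrinks the change of a low gene.

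The call rested on few fragments and a narrow margin. Testing required at least 1 FPKM in at least 2 libraries, which Psmb9 reached only in vitrified and melatonin libraries. Without this filter its limma adjusted p was 0.0886. At the longest annotated transcript, at most 8.23 fragments stood behind Psmb9 in fresh 1 and 66.8 in vitrified 3. Of the 18 other settings in which Psmb9 was tested, 3 kept the call, with an adjusted p between 0.0218 and 0.245 over all 18. The log2 fold change was positive in all of them, from 1.02 with quantile normalization to 2.25 with a pseudocount of 0.1. The limma adjusted p of 0.245 came with embryo sex as a covariate, where the log2 fold change was 1.07. Vitrified 2 and 3, the libraries without Y transcripts, had the highest Psmb9 values. Sex and vitrification thus cannot be fully told apart. The fold change cannot differ from the reported fit with no variance trend, no filter, only the groups compared, or a melatonin library left out. Leaving out any 1 of fresh 1, the vitrified or the melatonin libraries ended the call, and without fresh 2 it held (adjusted p = 0.0218).

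With melatonin, Psmb9 had a log2 fold change of -0.61 ± 0.21 (SE, limma adjusted p = 0.242) against vitrified and 0.67 ± 0.23 (adjusted p = 0.191) against fresh, neither past the threshold. The comparisons share libraries, so these values are not independent. Summed epiblast markers, from all 8 listed genes, stood at 27.7 and 73.6 FPKM in fresh, 139 to 179.8 in vitrified and 140.1 to 158 in melatonin blastocysts. Esrrb was listed at 0 in fresh 1, and no other epiblast marker was at 0 in any library. Their part in the Psmb9 result was not tested. In bulk samples, a change in the number of cells of a type and a change in RNA per cell cannot be told apart.

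Markers of immune and blood cells, with 7 of 11 listed genes in the table, summed to 3.56 and 3.67 FPKM in fresh, 2.40 to 7.77 in vitrified and 1.63 to 5.27 in melatonin libraries. Cd52, Cd74, Coro1a and H2-Aa stayed below 1 FPKM in all 8, and Laptm5, at 0.928 to 5.27, was the highest of the list in every library except vitrified 1, where H2-Ab1 was at 1.15. Their part in the Psmb9 result was not tested.

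Against its constitutive counterpart, Psmb9 amounted to 0.113% and 0.278% of Psmb6 in fresh, 0.926%, 1.11% and 1.19% in vitrified and 0.680%, 0.543% and 0.581% in melatonin blastocysts. The groups did not overlap, and the order followed Psmb9, since Psmb6 overlapped between the groups: 253 and 284 FPKM in fresh, 237, 282 and 236 in vitrified, 212, 253 and 247 in melatonin. The immune form was thus at most 1.19% of the constitutive transcript.

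Psmb10, which replaces Psmb7, was measured at 7.17 and 5.28 FPKM in fresh, 4.15, 6.08 and 4.41 in vitrified and 3.09, 3.62 and 3.57 in melatonin blastocysts. Its melatonin libraries lay below all others, while fresh and vitrified overlapped. The log2 fold change was -0.70 ± 0.22 (SE, limma adjusted p = 0.172) for melatonin against fresh, -0.40 ± 0.20 (adjusted p = 0.383) against vitrified and -0.30 ± 0.22 (adjusted p = 0.487) for vitrified against fresh. Psmb9 and Psmb10 thus had values of opposite sign after vitrification, and Psmb10 did not pass the test in any comparison.

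Psmb7 was measured at 58.0 and 34.5 FPKM in fresh, 34.0, 45.0 and 41.9 in vitrified and 28.3, 34.4 and 38.5 in melatonin blastocysts. Psmb10 amounted to 12.4% and 15.3% of Psmb7 in fresh, 12.2%, 13.5% and 10.5% in vitrified and 10.9%, 10.5% and 9.27% in melatonin blastocysts. The transcript of Psmb10 was therefore a larger share of its counterpart than that of Psmb9 in every library.

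Psmb8, which replaces Psmb5, was listed at 0 in 6 libraries and at 0.0447 and 0.0379 FPKM in fresh 2 and vitrified 2. Its counterpart Psmb5 was at 309.7 and 248 FPKM in fresh, 303, 265 and 247 in vitrified and 216, 269 and 232 in melatonin blastocysts, with overlap between the groups. Psmb8 and Psmb11 did not reach 1 FPKM in 2 libraries and were not tested, which left 48 of the 50 genes.

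**Figure D2:**
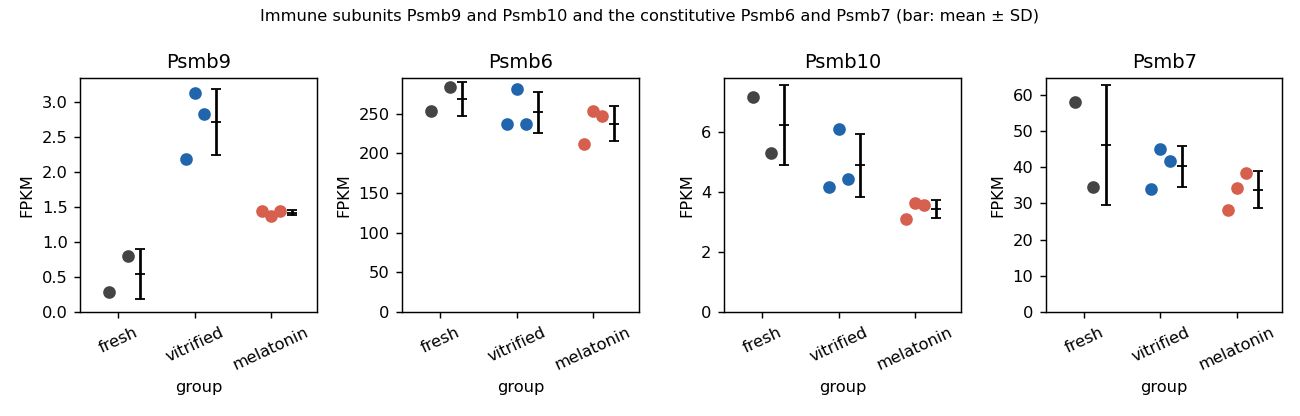
FPKM of the immune subunits Psmb9 and Psmb10 and of the constitutive Psmb6 and Psmb7 that they replace, 1 point per library, with the mean and SD of each group beside the points (2 fresh, 3 vitrified and 3 melatonin libraries). Psmb9 lies at 2.19 to 3.12 FPKM in the vitrified group and at or below 1.44 in all other libraries, while Psmb6 overlaps between the groups.

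Over all 10755 genes tested, 82 rose (0.762%) and 11 fell (0.102%) after vitrification, and the median log2 fold change was 0.14. Of the 48 proteasome genes, Psmb9 rose and the other 47 did not pass. At an unadjusted p below 0.05, 2 proteasome genes were higher and 1 lower, where 15.6% of all tested genes were higher and 4.56% lower. Without overlap between groups, 5 were higher, against 26.4% of all, and 12 lower, against 10.6%. The median over the 48 was -0.05, and 40 of 48 lay below the median of all genes.

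Psmd1, the largest scaffold of the cap, was measured at 30.5 and 31.8 FPKM in fresh, 54.0, 48.7 and 51.0 in vitrified and 40.9, 53.8 and 42.4 in melatonin blastocysts. All 6 vitrified and melatonin libraries lay above both fresh libraries. Its log2 fold change for vitrified against fresh was 0.70 ± 0.16 (SE), the largest of the cap, and missed the threshold (limma adjusted p = 0.0645, from 0.0537 to 0.247 under 19 other settings). For melatonin against fresh it was 0.53 ± 0.16 (adjusted p = 0.167).

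Its partner scaffold Psmd2 was at 62.1 and 62.0 FPKM in fresh, 93.2, 68.9 and 82.9 in vitrified and 90.8, 97.4 and 76.8 in melatonin blastocysts. Again both fresh libraries were lowest, with a log2 fold change of 0.38 ± 0.17 (SE, limma adjusted p = 0.255) after vitrification and 0.50 ± 0.17 (adjusted p = 0.194) with melatonin. The lid subunit Psmd12 was at 103 and 148 FPKM in fresh, 156, 159 and 159.8 in vitrified and 155, 168 and 150.3 in melatonin blastocysts. Both fresh libraries were again lowest, and the log2 fold change of 0.36 ± 0.17 after vitrification did not pass (adjusted p = 0.274).

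Psmb3, a structural beta subunit, was at 218 and 233 FPKM in fresh, 196, 189.7 and 175 in vitrified and 193, 200.3 and 221 in melatonin blastocysts. Its vitrified libraries lay below both fresh ones (log2 fold change -0.27 ± 0.14 SE, limma adjusted p = 0.292). Psma5 had the lowest fold change of the core, at 105 and 104 FPKM in fresh and 71.7, 102 and 81.6 in vitrified blastocysts (-0.31 ± 0.18, adjusted p = 0.373), without overlap. Psma8 had the highest, 0.72 ± 0.35 (adjusted p = 0.279), with all vitrified libraries above both fresh ones by its values above.

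Psmd10, the sole proteasome gene on the X chromosome (chrX:140948429-140956728), assembles the base of the cap and is known as gankyrin. It was at 53.1 and 56.4 FPKM in fresh, 43.1, 45.4 and 48.6 in vitrified and 49.8, 52.7 and 46.1 in melatonin blastocysts. The vitrified libraries lay below both fresh ones, with the lowest log2 fold change of the cap (-0.26 ± 0.14 SE, limma adjusted p = 0.346). Vitrified 2 and 3, without Y transcripts, lay between vitrified 1 and the fresh libraries. Of the activators and chaperones, Psmg1 had the highest value (0.26 ± 0.20, adjusted p = 0.502) and Psme3 the lowest (-0.26 ± 0.21, adjusted p = 0.522), both with overlap.

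Psmc3ip was at 19.7 and 22.7 FPKM in fresh, 16.4, 15.5 and 12.2 in vitrified and 12.3, 14.7 and 15.7 in melatonin blastocysts. Both fresh libraries were the highest, with a log2 fold change of -0.50 ± 0.19 (SE, limma adjusted p = 0.185) after vitrification and -0.55 ± 0.19 (adjusted p = 0.197) with melatonin.

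**Figure D3:**
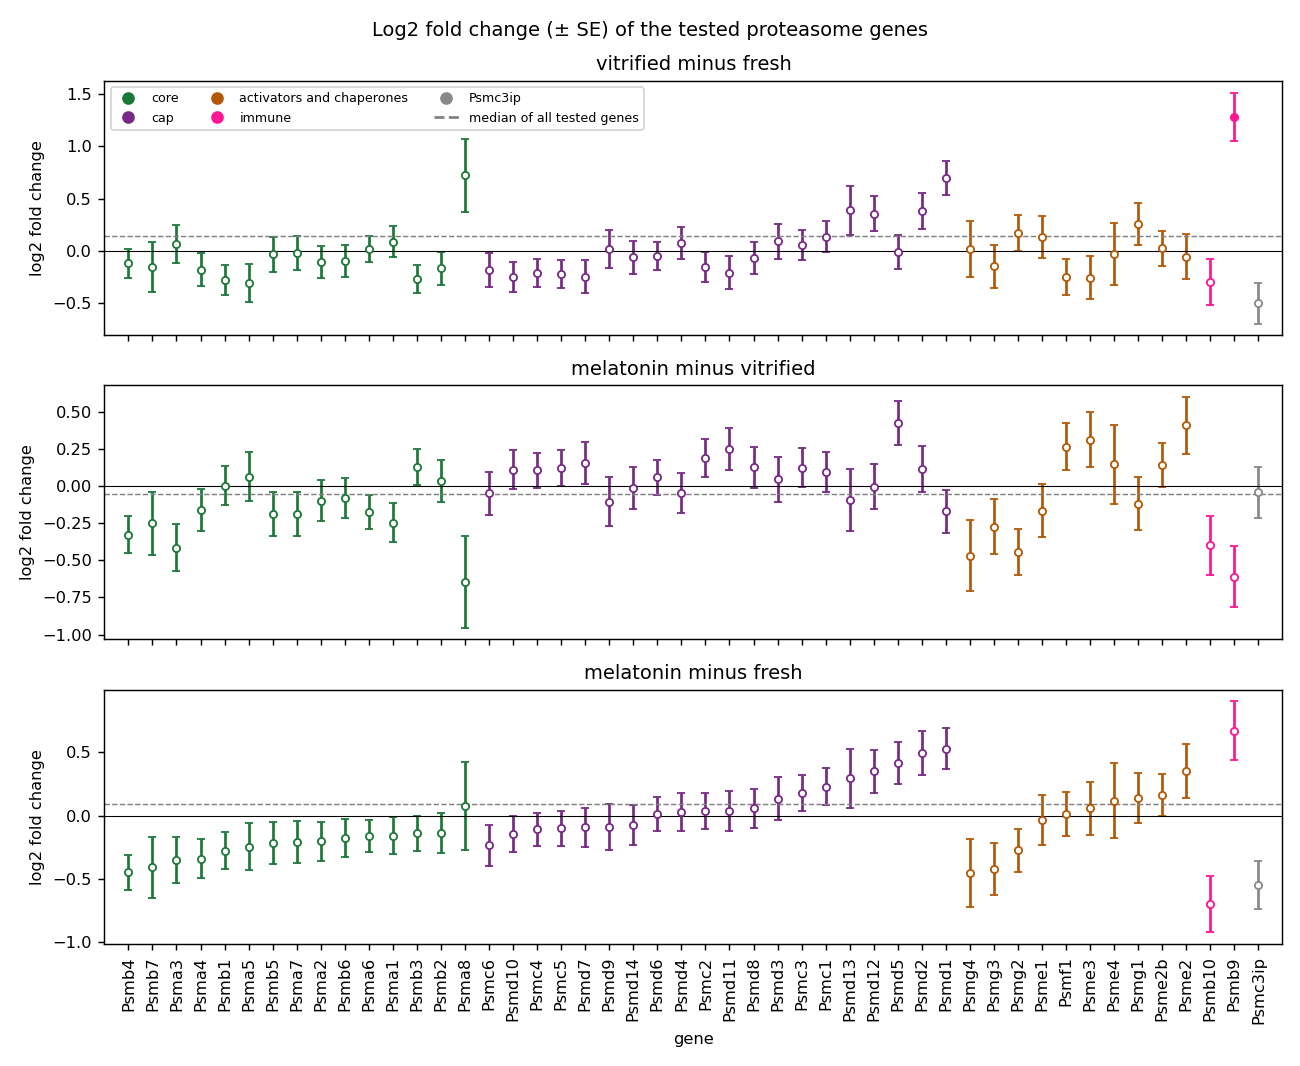
Log2 fold change with its SE for each of the 48 tested proteasome genes in the 3 comparisons, coloured by class, with the median of all tested genes as a dashed line (0.14, -0.05 and 0.09 from top to bottom). The filled point is Psmb9 in the top panel, the sole gene past the threshold, and all 15 core genes lie below the dashed line in the bottom panel.

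The second comparison, melatonin against vitrified, asks what melatonin in the media changes. Over all genes 3 rose (0.0279%) and 12 fell (0.112%), with a median log2 fold change of -0.05, and none of the 48 proteasome genes passed limma's test. At an unadjusted p below 0.05, 1 was higher (4.59% of all genes) and 4 were lower (10.2%). Without overlap, 4 were higher (9.3% of all) and 8 lower (15.4%), and the median over the 48 was -0.03.

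Psmd5, a chaperone of the cap's base, was at 17.7 and 16.7 FPKM in fresh, 16.6, 17.5 and 17.0 in vitrified and 20.3, 23.5 and 26.4 in melatonin blastocysts. The melatonin libraries lay above all 5 others, which lay between 16.6 and 17.7 FPKM. The log2 fold change of 0.43 ± 0.15 (SE) against vitrified was the highest of the cap and did not pass (limma adjusted p = 0.245). Against fresh it was 0.42 ± 0.17 (adjusted p = 0.230).

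Psmb4, a structural beta subunit, was at 103 and 87.6 FPKM in fresh, 86.4, 90.5 and 84.8 in vitrified and 69.3, 72.4 and 66.5 in melatonin blastocysts. The melatonin libraries were the lowest, by a log2 fold change of -0.33 ± 0.12 (SE, limma adjusted p = 0.282) against vitrified and -0.45 ± 0.14 (adjusted p = 0.168) against fresh. The alpha subunit Psma3 was at 31.6 and 23.7 FPKM in fresh, 27.5, 30.9 and 27.8 in vitrified and 19.0, 23.3 and 21.8 in melatonin blastocysts. Its melatonin libraries too lay below all others (-0.41 ± 0.16 against vitrified, adjusted p = 0.282).

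Psmg2, a chaperone of the alpha ring, was at 112.5 and 113 FPKM in fresh, 113, 141 and 129 in vitrified and 81.8, 112 and 88.8 in melatonin blastocysts. All 3 melatonin libraries were the lowest, with a log2 fold change of -0.44 ± 0.15 (SE, limma adjusted p = 0.244) against vitrified. Psmg4 had the lowest value of its class (-0.47 ± 0.24, adjusted p = 0.391) with overlap, at 43.8 to 64.8 FPKM in vitrified and 30.2 to 50.0 in melatonin blastocysts. The extremes of the core were Psmb3 (0.13 ± 0.12, adjusted p = 0.639) and Psma8 (-0.64 ± 0.31, adjusted p = 0.369), and Psmd1 was lowest in the cap (-0.17 ± 0.15, adjusted p = 0.616).

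Psme2, 1 of the 2 chains of the interferon-induced activator, was at 8.08 and 7.43 FPKM in fresh, 9.63, 6.75 and 6.20 in vitrified and 9.07, 10.9 and 10.7 in melatonin blastocysts. Vitrified 1 overlapped with the melatonin libraries, and the log2 fold change of 0.41 ± 0.19 (SE) did not pass (limma adjusted p = 0.354). Its partner Psme1 had -0.17 ± 0.18 (adjusted p = 0.693). Psme2 amounted to 86.2% and 79.8% of Psme1 in fresh, 75.2%, 66.9% and 73.1% in vitrified and 101%, 112% and 123% in melatonin blastocysts. The ratio, which is uncertain for the copy Psme2b, was highest in all 3 melatonin libraries and lowest in all 3 vitrified ones.

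In the third comparison, melatonin against fresh, limma called 0 genes higher (0%) and 0 lower (0%), so no proteasome gene passed. The median over all genes was 0.09. At an unadjusted p below 0.05, 4 proteasome genes were higher (11.6% of all genes) and 3 lower (6.82%). Without overlap, 9 were higher (20.8% of all) and 14 lower (13.5%), with a median of -0.09 over the 48, of which 35 lay below the median of all genes. The extremes were Psmd1 and Psmc6 (-0.23 ± 0.16 SE, adjusted p = 0.466) in the cap, Psma8 (0.08 ± 0.35, adjusted p = 0.925) and Psmb4 in the core, and Psme2 (0.35 ± 0.21, adjusted p = 0.402) and Psmg4 (-0.45 ± 0.27, adjusted p = 0.392) among activators and chaperones.

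Core and cap genes differed in where they lay relative to the median of all genes. Against fresh, the median log2 fold change of the 15 tested core genes was -0.21 with melatonin, and 15 of 15 lay below the median of all genes, while the 20 cap genes had a median of 0.04 and 12 of 20 lay below. Against vitrified, the core had a median of -0.17 with melatonin (11 of 15 below) and the cap of 0.10, with 17 of 20 above. After vitrification alone, the core had a median of -0.11 (14 of 15 below) and the cap of -0.03 (16 of 20 below). No core or cap gene passed limma's test in any comparison. At an unadjusted p below 0.05, 1 cap gene was higher after vitrification, 2 core genes were lower and 1 cap gene higher with melatonin against vitrified, and 1 core gene was lower and 3 cap genes higher against fresh. Over all tested genes, 15.6% were higher and 4.56% lower at this p after vitrification, 4.59% and 10.2% with melatonin against vitrified, and 11.6% and 6.82% against fresh. The difference between the classes was not tested.

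By library, the median deviation of the core genes from their own means, minus that of the cap genes, was 0.19 and 0.05 in fresh, -0.06, 0.21 and 0.03 in vitrified and -0.20, -0.16 and -0.08 on the log2 scale in melatonin blastocysts. All 3 melatonin libraries were below the other 5. Fresh and vitrified overlapped, with vitrified 2 the highest. For melatonin against fresh, the alpha ring had a median log2 fold change of -0.21 and the beta ring of -0.22. The median deviation of the beta ring alone, 0.01 and -0.01 in melatonin 2 and 3, lay above that of vitrified 1 and 3 (both -0.08).

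Within the cap, the ATPases had a median log2 fold change of -0.17 after vitrification and 0.115 with melatonin against vitrified. The lid had -0.05 and 0.05, and the 3 base chaperones had -0.01 and 0.11. Activators and chaperones had medians of -0.01 and 0.01 in these comparisons and 0.04 for melatonin against fresh.

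The difference of core minus cap was negative under all 19 other settings for melatonin against vitrified (-0.29 to -0.11) and against fresh (-0.30 to -0.16). No variance trend, only the groups compared, and leaving out a library of the group not compared cannot change this difference. Nor can the filter of 5 FPKM, which kept the same core and cap genes. The same holds for the biosample block in melatonin against vitrified and for embryo sex in melatonin against fresh. The agreement of these settings with the reported fit was thus fixed in advance. Median ratio scaling shifts all genes of a library nearly alike, and gave -0.28 against vitrified and -0.25 against fresh, as in the reported fit. For vitrified against fresh the difference ran from -0.17 to 0.04, with positive values under quantile normalization and without fresh 1. Quantile normalization and median ratio scaling moved the median of all genes after vitrification from 0.14 to -0.02 and 0.01. Relative to that median, the core lay at -0.24 after vitrification and at 0.05 with quantile normalization, under which 6 of 15 core genes were below. With median ratio scaling the core lay at -0.28, with 14 of 15 below. Against vitrified, the core with melatonin lay at -0.12 relative to all genes, -0.04 without melatonin 1 and 0.02 with the title number as a block. Without fresh 1, the core lay at -0.08 after vitrification and -0.16 with melatonin against fresh.

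Core transcripts are shorter than cap transcripts. The longest annotated transcript had a median of 1239 bases in the core, 1986 in the cap and 2832 over the 10721 tested genes with an annotated length. Across all those genes, longer ones had higher fold changes, with Spearman's rho of 0.16 after vitrification, 0.15 for melatonin against vitrified and 0.28 against fresh. Over the 48 proteasome genes rho was 0.13, 0.23 and 0.38, and within the 15 core genes 0.03, -0.27 and -0.27. Within the 20 cap genes rho was 0.39, 0.05 and 0.51, with longer cap genes having the higher values. These are descriptions across genes of the same libraries, and the part of length in the difference between core and cap was not tested.

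**Figure D4:**
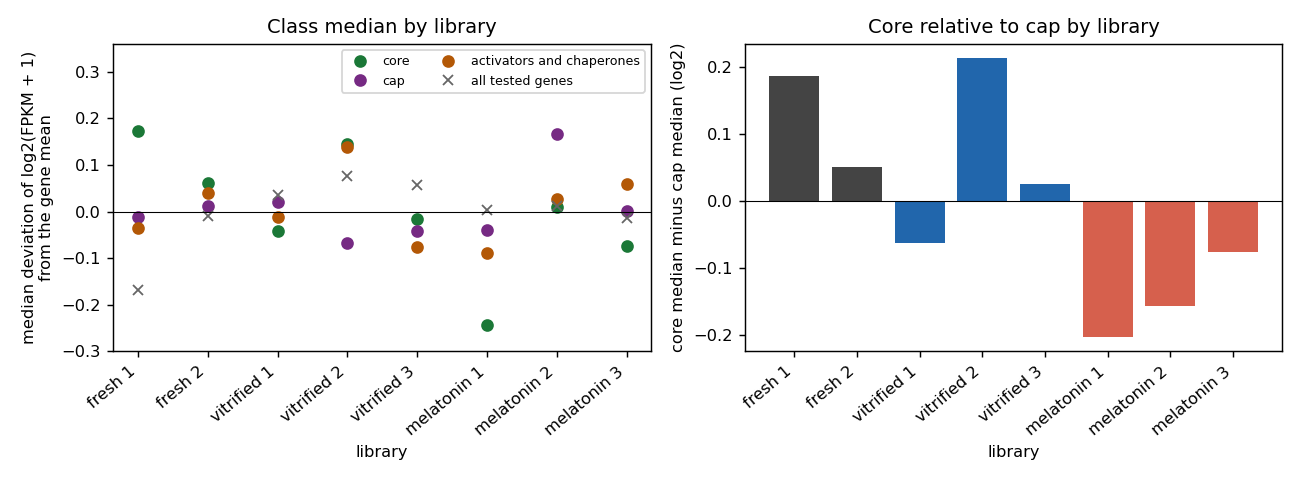
Left, the median deviation of log2(FPKM + 1) from each gene's mean over the 8 libraries, for the core (15 genes), the cap (20), activators and chaperones (10) and all 10755 tested genes. Right, the core median minus the cap median by library, negative in all 3 melatonin libraries (-0.20, -0.16 and -0.08) and in vitrified 1 (-0.06).

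**Figure D5:**
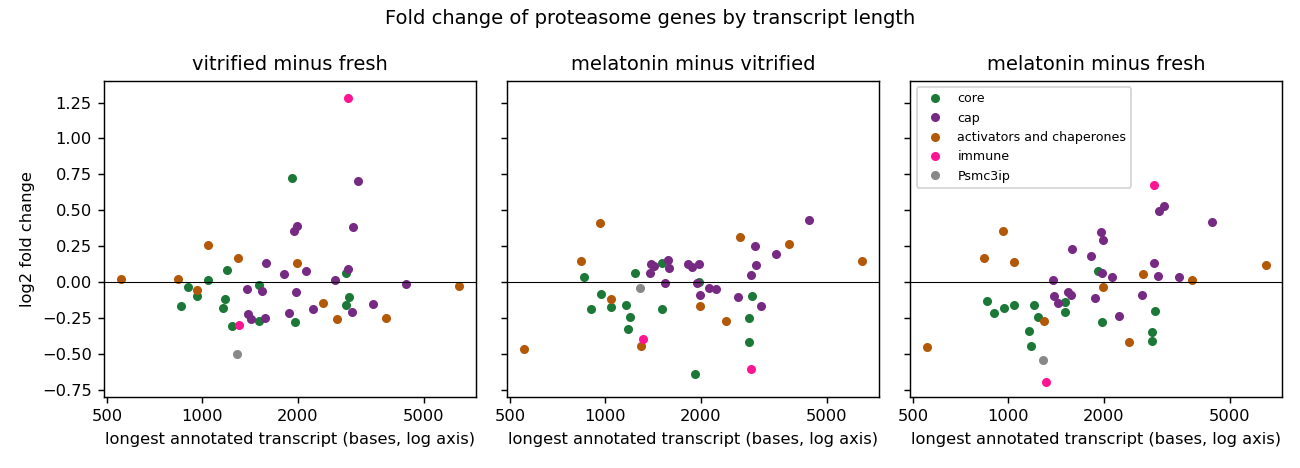
Log2 fold change of the 48 tested proteasome genes against the length of their longest annotated transcript (log axis), coloured by class, for the 3 comparisons. Core genes sit mostly to the left, with a median length of 1239 bases against 1986 for the cap.

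The core genes varied together across libraries more than the cap genes did. The median Pearson correlation over pairs was 0.56 among the 15 core genes, 0.18 among the 20 cap genes, -0.06 between core and cap and 0.04 over all pairs of tested genes, each over the 8 libraries, which share depth and composition. The 5 genes most like the core mean (Pearson's r on log2(FPKM + 1), 8 libraries) were Rps10 (0.98), Mrpl34 (0.98), Psmg3 (0.97), Ndufb6 (0.97) and Rpl37rt (0.97). Rps10 and Mrpl34 encode proteins of the cytosolic and the mitochondrial ribosome, and Psmg3 is itself a core chaperone. Melatonin 1 was the lowest library for all 5.

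The 5 genes most like Psmb9 were Brca1 (r = 0.98), Lpcat1 (0.98), Usp37 (0.98), L1td1 (0.98) and Edrf1 (0.98). Lpcat1, a phospholipid acyltransferase, was at 2.01 and 3.04 FPKM in fresh, 8.64, 10.6 and 9.60 in vitrified and 6.47, 5.53 and 6.14 in melatonin blastocysts. It thus had the same order of groups as Psmb9, with vitrified highest. These correlations were picked as the highest of all tested genes and are given as a description.

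The genes around the proteasome were read from lists of its pathway. Of 14 genes of ubiquitin and its activation and conjugation, 0 passed limma's test in any comparison. After vitrification, 2 were higher and 6 lower at an unadjusted p below 0.05, against 15.6% and 4.56% of all genes, and the list median was -0.31 against 0.14 for all genes. The conjugating enzyme Ube2l3 was at 24.8 and 21.7 FPKM in fresh, 0.817, 1.15 and 0.804 in vitrified and 19.1, 0.828 and 8.88 in melatonin blastocysts. All vitrified libraries lay below both fresh ones by a log2 fold change of -3.66 ± 0.77 (SE, adjusted p = 0.0570), while melatonin 2 lay among the vitrified values and melatonin 1 near the fresh ones.

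With melatonin against vitrified, the smallest p were those of Ube2l3 (1.90 ± 0.69, adjusted p = 0.262) and the conjugating enzyme Ube2d1 (-0.55 ± 0.25, adjusted p = 0.345). At an unadjusted p below 0.05, 1 gene of the list was higher and 0 lower in this comparison (4.59% and 10.2% of all genes), and 2 higher and 5 lower against fresh (11.6% and 6.82%). The smallest p against fresh was that of Ube2r2, a conjugating enzyme of SCF ligases, at -0.60 ± 0.17 (adjusted p = 0.158).

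Of 11 tested proteasome subunits and bound factors without a Psm name, 0 passed limma's test in any comparison, and 0, 1 and 1 were higher and 0 lower at an unadjusted p below 0.05 in the 3 comparisons. Of all genes, 15.6%, 4.59% and 11.6% were higher and 4.56%, 10.2% and 6.82% lower. Zfand5, a proteasome activator, was at 18.4 and 22.5 FPKM in fresh, 19.9, 14.6 and 19.6 in vitrified and 40.8, 24.1 and 34.7 in melatonin blastocysts. The melatonin libraries lay above all others, with a log2 fold change of 0.83 ± 0.22 (SE, limma adjusted p = 0.172) against vitrified. Shfm1, a small lid subunit, had -0.36 ± 0.16 (adjusted p = 0.345). After vitrification, the smallest p were those of the ubiquitin receptor Adrm1 (-0.23 ± 0.16, adjusted p = 0.458) and the deubiquitinase Uchl5 (-0.27 ± 0.19, adjusted p = 0.469).

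Of 13 shuttle factors and parts of the p97 unfoldase, 0 passed limma's test. After vitrification 1 was higher at an unadjusted p below 0.05, with melatonin 3 were higher and 1 lower against vitrified, and 2 were higher against fresh. The shares of all genes higher were 15.6%, 4.59% and 11.6%, and 10.2% were lower for melatonin against vitrified. Vcp, which encodes p97, was at 29.7 and 26.9 FPKM in fresh, 55.2, 39.7 and 49.7 in vitrified and 47.4, 45.8 and 33.0 in melatonin blastocysts. Both fresh libraries were the lowest (log2 fold change 0.74 ± 0.21 SE, limma adjusted p = 0.0928). With melatonin against vitrified, the ubiquitin shuttle Ubqln1 had 0.44 ± 0.16 (adjusted p = 0.266) and the protease Ddi2 0.78 ± 0.30 (adjusted p = 0.284). Against fresh, the p97 cofactor Faf1 had 0.67 ± 0.26 (adjusted p = 0.228).

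Of 10 tested regulators of proteasome gene transcription, 0 passed limma's test. By an unadjusted p below 0.05, 1 was higher and 1 lower both after vitrification and with melatonin against fresh, and 0 in the remaining comparison. Of all genes, 15.6% were higher and 4.56% lower after vitrification and 11.6% and 6.82% with melatonin against fresh. Nfe2l1, the factor that raises proteasome genes when proteasome activity is short and that Ddi2 cleaves, was at 1.99 and 7.15 FPKM in fresh, 2.38, 1.12 and 0.625 in vitrified and 1.19, 0.657 and 0.651 in melatonin blastocysts. Fresh 2 stood above all others, and the log2 fold change was -1.12 ± 0.43 (SE, limma adjusted p = 0.193) after vitrification and -1.44 ± 0.43 (adjusted p = 0.164) with melatonin against fresh. Stat3 was at 4.12 and 7.42 FPKM in fresh, 16.7, 12.6 and 15.7 in vitrified and 14.9, 19.5 and 9.50 in melatonin blastocysts. Both fresh libraries were the lowest (1.27 ± 0.31 after vitrification, adjusted p = 0.0697). The NF-Y subunits Nfyc and Nfyb had the smallest p for melatonin against vitrified (adjusted p = 0.446 and 0.487).

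Of 13 tested genes of MHC class I and interferon signalling, the usual partners of the immune subunits, 0 passed limma's test. After vitrification 5 were higher and 0 lower at an unadjusted p below 0.05 (15.6% and 4.56% of all genes), with a list median of 0.42 against 0.14 for all genes. With melatonin, 1 was higher and 2 lower against vitrified (4.59% and 10.2% of all genes), and 3 higher and 0 lower against fresh (11.6% and 6.82%). B2m, the light chain of MHC class I, was at 14.0 and 7.20 FPKM in fresh, 30.8, 31.2 and 26.5 in vitrified and 7.65, 16.0 and 19.9 in melatonin blastocysts. The vitrified libraries lay above all others (log2 fold change 1.46 ± 0.37 SE against fresh, limma adjusted p = 0.0743).

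Bst2, an interferon-induced membrane protein, was at 9.95 and 4.73 FPKM in fresh, 15.7, 18.5 and 17.5 in vitrified and 6.23, 6.01 and 5.93 in melatonin blastocysts. Its vitrified libraries too lay above all others, with a log2 fold change of 1.20 ± 0.26 (SE, limma adjusted p = 0.0578) against fresh and -1.37 ± 0.23 (adjusted p = 0.0802) for melatonin against vitrified. The peptide-loading protein Tapbp was at 0.340 and 0.767 FPKM in fresh, 1.39, 1.21 and 1.29 in vitrified and 1.55, 1.88 and 2.26 in melatonin blastocysts (0.90 ± 0.23 for melatonin against fresh, adjusted p = 0.141). Unlike B2m and Bst2, its highest libraries were those with melatonin. Tapbp, like Psmb9, reached the 1 FPKM needed for testing only in vitrified and melatonin libraries. Stat2 had 0.95 ± 0.26 (adjusted p = 0.147) in the same comparison.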

How the data were processed

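The authors deposited 1 table of FPKM for 8 libraries, on genome build mm10 per the submitters' processing notes. Which aligner, counter and annotation they used, and whether strand counted, is not given in the sources used here. Smart-seq2 is named in the series description, whereas the sample protocol describes a stranded poly(A) library. Depth was estimated from low FPKM values, of which 95.4% to 97.5% were whole multiples of 1 fragment (tolerance 0.1), for genes with 1 transcript in GENCODE on GRCm38. Groups and replicate numbers follow the biosample descriptions.

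Differences of mean log2(FPKM + 1) were tested with limma 3.58.1 (R 4.3.3) fitted to the 8 libraries together (eBayes with trend), two-sided, for 10755 genes with at least 1 FPKM in at least 2 libraries. A fold change on this scale understates that of low genes. Data were simulated over 10755 genes with independent noise, and changes were added on the log2(FPKM + 1) scale. Changes of 1.5-fold on that scale were found in 3.58% of genes for vitrified against fresh. They were found in 3.88% for melatonin against vitrified and 2.39% for melatonin against fresh. In the same order, changes of 2-fold were found in 31.6%, 42.7% and 30.7%, and of 4-fold in 93.9% or more. Promoter windows are RefSeq's.

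The proteasome genes and pathway lists were chosen with earlier results of these data known. Named in full are genes that passed, the immune subunits and their counterparts, the highest and lowest fold change and level of each class, the X-linked gene, and the 2 smallest p of each list. One gene that this rule names is not reported here. Others without overlap were added after their values were seen. Alternatives were other normalizations, filters, pseudocount, models, library weights, embryo sex, blocks and each library left out. Tables and plots were made with Python 3.11.15, pandas 2.3.3 and matplotlib 3.10.9.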

Additional observations from a re-analysis of the deposited data

How the results depend on the processing

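Psmb9 was the single proteasome gene called after vitrification. The count was 0 with median ratio scaling, quantile normalization, without the filter, with a filter of 5 FPKM on the mean (where Psmb9 was not tested), only the groups compared, library weights, embryo sex as a covariate, or either number as a replicate block. It was 0 to 1 with 1 library left out. No setting called a proteasome gene in the other 2 comparisons. The median log2 fold change of the proteasome genes was -0.21 with median ratio scaling after vitrification (-0.05 in the reported fit). For melatonin against fresh it was 0.0181 with quantile normalization, -0.20 with median ratio scaling and 0.0211 with the title number as a replicate block (-0.09 as reported), and for melatonin against vitrified 0.0593 with that block (-0.03 as reported). Same-numbered libraries had correlations of -0.11 to 0.12, after each group's mean was taken off. With 2 or 3 libraries per group the values left are tied to each other. The correlations therefore cannot show whether the numbers pair the samples. Over all genes, calls after vitrification numbered 93 as reported, 3 with quantile normalization, 7 with median ratio scaling, 1 with no filter, 11 with only the groups compared, 1 and 39 with the biosample and title number as a replicate block, 1 with library weights and 4 with embryo sex. They ranged from 2 to 433 with 1 library left out. For melatonin against vitrified, the 15 calls became 8, 68, 1, 0, 233 and 3 with quantile normalization, only these groups, the 2 blocks, weights and sex, 6 with a pseudocount of 0.1, and 1 to 68 with 1 library left out. For melatonin against fresh, the 0 calls became 5 with that pseudocount, 2 with only these groups, 44 with the title block and up to 565 with 1 library left out. The cause of these differences was not tested. Depth limits the values of Psmb8, Psmb9 and Psmb11, which lay below 1 FPKM in some or all libraries.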
